A study of Mus musculus with 24 samples.

Results

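The gamma-chain cytokine and receptor genes examined here were Il2rg, Il2rb, Il2ra, Il15ra, Il7r, Il21r and Il4ra, which encode receptor chains, and Il15 and Il7, which encode cytokines. They were listed by name and matched by GENCODE M21 symbol to the Ensembl identifiers of the count table, where all 9 were found among 39017 gene identifiers. RNA was sequenced from whole dorsal skin of female C3H/HeJ mice in 24 libraries, 6 per group, with all mice labelled as about 30 weeks old at termination and with 3444193 to 11233020 counts per library. The healthy group was untreated skin without disease at week 12. The AA group carried graft-induced alopecia areata, an autoimmune hair loss transferred with skin from an affected donor, with complete or nearly complete hair loss at week 12. It was labelled as untreated although its sample titles carry the tag Vec, so vehicle dosing was not settled. The systemic JAK1i group had the same disease and received an oral selective JAK1 inhibitor (Cmpd A, about 100 mg/kg/day) for 4 weeks, with skin taken by live biopsy at week 4. The 8w off Tx group was taken at week 12, 8 weeks after the same 4 weeks of dosing ended, and by the study's methods came from the same 6 mice as the systemic JAK1i biopsies. Those mice had some hair before dosing, and the letters that name libraries do not say which biopsies share a mouse. Treatment therefore cannot be told apart from week and from live against terminal sampling in any comparison with the systemic JAK1i group. The 5 keratinocyte marker genes summed to between 6266 and 14700 CPM (counts scaled to the library total) in every library.

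The common gamma chain, encoded by Il2rg, pairs with private chains to form the receptors for IL-2, IL-4, IL-7, IL-9, IL-15 and IL-21. IL-2 and IL-15 share the beta chain Il2rb, and Il2ra or Il15ra adds high affinity. The chains signal through JAK1, bound to the private chain, and JAK3, bound to the common chain, and onward to STAT proteins. IL-15 and IL-7 made by skin cells keep resident T cells alive, and IL-15 signalling through Il2rb sustains the cytotoxic CD8 T cells that attack hair follicles in alopecia areata.

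In the GRCm38 annotation Il2rg (ENSMUSG00000031304) lay on chrX:101264378-101268255, Il2rb (ENSMUSG00000068227) on chr15:78479256-78495271, Il15 (ENSMUSG00000031712) on chr8:82331632-82403222, Il7 (ENSMUSG00000040329) on chr3:7569994-7613760 and Il7r (ENSMUSG00000003882) on chr15:9505788-9530176. Il2ra (ENSMUSG00000026770, chr2:11642807-11693193) and Il15ra (ENSMUSG00000023206, chr2:11705290-11734317) were neighbours 12096 bases apart, and Il4ra (ENSMUSG00000030748, chr7:125552120-125579474) and Il21r (ENSMUSG00000030745, chr7:125603429-125633570) were 23954 bases apart. The annotation shared 728 exonic bases of Il2rg with Gm20489 on the same strand and 105 exonic bases of Il7 with the antisense gene Gm16685. No source used here gives the strand setting of the counting, so reads of these pairs may not be separated.

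RefSeq promoter windows on build GRCm38.p6 were matched for 6 of the 9 genes. Only the 250 bases upstream of each start site were read, and both strands were searched for 3 motifs of STAT and interferon factors: TTCNNNGAA, held by 7.02% of all 32851 windows, TTCNNNNGAA, held by 5.85%, and GAAANNGAAA, held by 2.98%. Motifs of NF-kappaB (3.90% of windows) and of ETS factors (CCGGAAG, 6.91% of windows) were added after the windows had been read. Windows are shown for Il2ra, Il2rg and Il21r, 3 of the receptor genes that rose in AA and whose window ended at or just before the annotated gene, with motif matches in capitals. The capitals mark a pair of overlapping NF-kappaB matches in Il2ra (chr2:11642542-11642791, plus strand), of which the outermost began 201 bases upstream of the start site, and an ETS match 17 bases upstream of the start site in Il2rg (chrX:101268256-101268505, minus strand). None of the 5 motifs was found in the window of Il21r (chr7:125603179-125603428, plus strand).
Il2ra: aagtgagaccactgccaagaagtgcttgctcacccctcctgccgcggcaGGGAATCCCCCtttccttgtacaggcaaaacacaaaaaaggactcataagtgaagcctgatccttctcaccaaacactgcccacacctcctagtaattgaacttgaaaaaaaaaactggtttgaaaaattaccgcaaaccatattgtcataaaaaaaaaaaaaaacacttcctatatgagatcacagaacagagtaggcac
Il2rg: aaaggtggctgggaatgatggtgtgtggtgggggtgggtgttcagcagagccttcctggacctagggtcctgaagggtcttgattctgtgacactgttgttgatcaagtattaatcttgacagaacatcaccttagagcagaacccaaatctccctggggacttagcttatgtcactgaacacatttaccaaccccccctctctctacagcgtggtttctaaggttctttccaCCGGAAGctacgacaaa
Il21r: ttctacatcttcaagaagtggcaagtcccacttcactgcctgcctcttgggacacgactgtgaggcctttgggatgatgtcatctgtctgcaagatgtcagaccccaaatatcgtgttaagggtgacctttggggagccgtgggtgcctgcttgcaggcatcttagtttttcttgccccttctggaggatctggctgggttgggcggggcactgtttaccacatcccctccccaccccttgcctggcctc
The single TTCNNNGAA match among these genes lay in the window of Il7r, 142 bases upstream of its RefSeq start site and inside the annotated gene. It is shown in capitals with 10 bases on each side.
Il7r: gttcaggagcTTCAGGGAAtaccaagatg
A match in letters is not evidence that a factor binds, and the windows of Il4ra and Il15ra held no STAT or interferon match either, while 1 of the Il15ra windows held an ETS match 104 bases upstream.

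The first question was which chains differed in AA skin. In the comparison with healthy skin 5 of the 9 genes rose, namely Il21r, Il2ra, Il4ra, Il2rb and Il2rg, and 0 fell at an adjusted p below 0.05 (edgeR quasi-likelihood test, Benjamini-Hochberg over 16248 genes). By the same test 20.9% of all genes rose and 19.3% fell in this comparison, 40.2% in all. The libraries of the groups did not overlap for 4 of the 5 (Il21r, Il2ra, Il4ra and Il2rb), where 8.17% of all genes lay higher and 6.13% lower without overlap, 14.3% in all. The median log2 fold change was 0.85 over the 9 genes and 0.0011 over all genes tested. Neither cytokine gene passed the test. On the deposited TPM values without centring 0 of the 9 passed, and after centring each library on its median 5 did, with Il7r in place of Il2rg (limma adjusted p = 0.044 and 0.055).

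**Figure D1:**
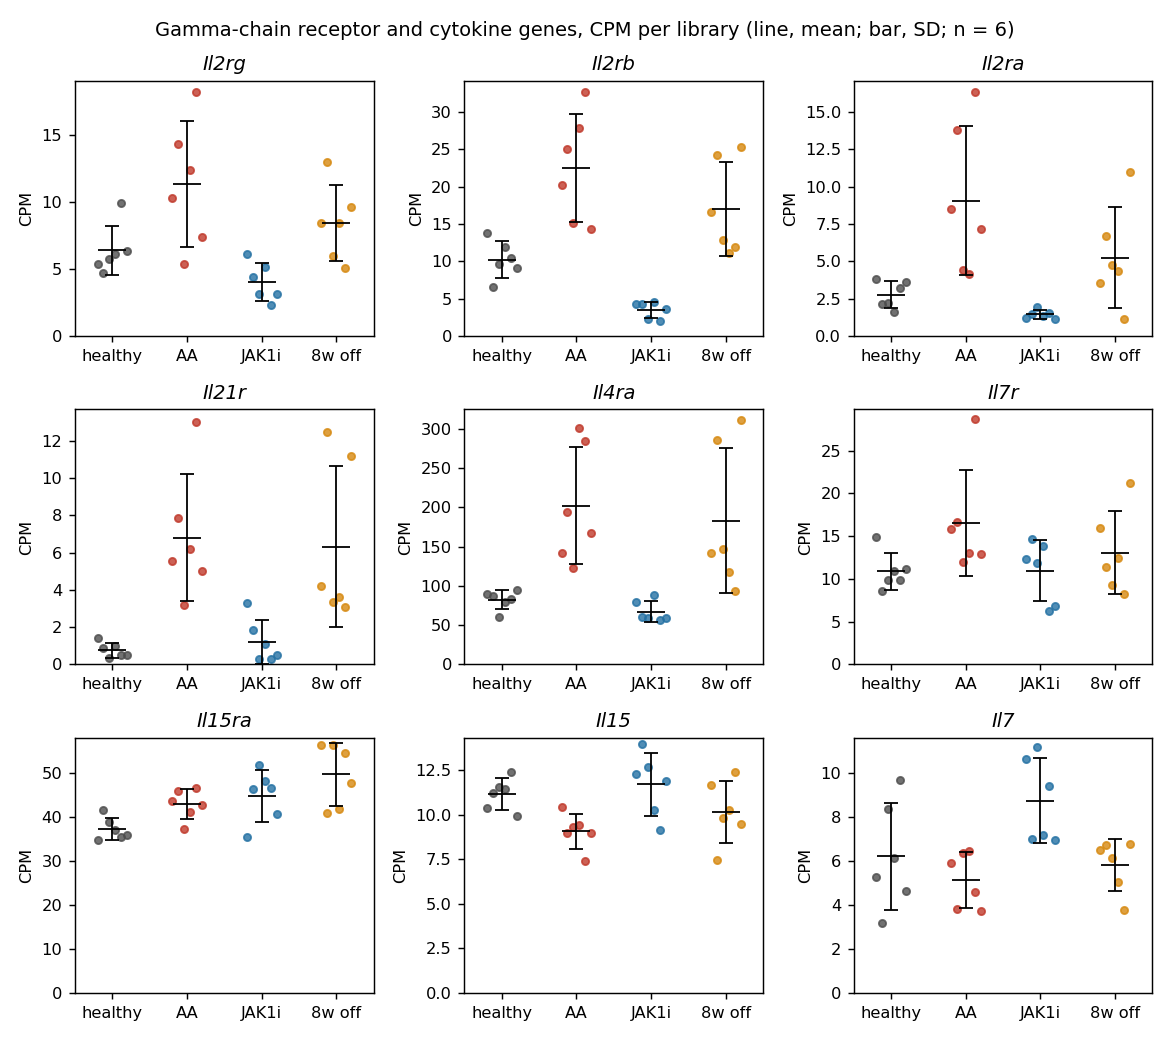
CPM of each gene in each library (points), with the group mean (line) and SD (bar), 6 libraries per group; JAK1i is systemic JAK1i and 8w off is 8w off Tx. Il2rb in the systemic JAK1i group lies between 2.00 and 4.50 CPM, under every library of the other 3 groups, while Il15ra ranges only from 34.7 to 56.5 CPM over all 24 libraries.

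Il21r, the private chain of the IL-21 receptor, had the largest estimate. It ranged from 0.340 CPM through a median of 0.696 to 1.42 CPM in healthy skin, and from 3.18 CPM through a median of 5.87 to 13.04 CPM in AA skin. The lowest AA library, C, thus lay above the highest healthy library. The log2 fold change was 3.06 ± 0.59 (SE, n = 6 per group, edgeR adjusted p = 0.00014). The healthy libraries held only 2 to 10 counts each for Il21r, so the size of this fold is poorly fixed. In the deposited TPM table, made by another route than the counts, Il21r averaged 1.402 TPM in healthy and 2.01 TPM in AA skin with overlapping libraries. On log2(TPM + 1) the median of all genes was shifted by -0.22 in AA against healthy and by 0.51 in systemic JAK1i against AA, so TPM changes are given relative to it. After centring each library on its median, the TPM values gave a log2 difference of 0.51 (limma adjusted p = 0.00094).

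Il2ra, the alpha chain of the high-affinity IL-2 receptor found on activated and regulatory T cells, ranged from 1.58 to 3.84 CPM (median 2.72) in healthy and from 4.13 to 16.3 CPM (median 7.81) in AA skin. The groups did not overlap, and AA libraries B and E were high. Its log2 fold change was 1.70 ± 0.38 (SE, edgeR adjusted p = 0.0011), and on centred TPM 0.56 (limma adjusted p = 0.00024). Foxp3, the defining factor of regulatory T cells, averaged 3.43 ± 0.89 CPM in AA and 3.60 ± 0.56 CPM in healthy skin (SD, n = 6, edgeR adjusted p = 0.89). Of the 4 genes of the regulatory T cell list 1 fell in AA, Ikzf2, a factor also found outside these cells, from 154 to 82.5 mean CPM (edgeR adjusted p = 0.0018). The list summed to 131 to 208 CPM in healthy and 68.3 to 119 CPM in AA skin, without overlap. Those sums averaged 173 and 97.8 CPM and were mostly Ikzf2, so they are not a separate result.

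Il4ra, a chain shared by receptors for IL-4 and IL-13, was the most counted of the 9 genes. It ranged from 60.4 to 94.7 CPM (median 85.5) in healthy and from 123 to 302 CPM (median 181) in AA skin, and the groups did not overlap. Its log2 fold change was 1.29 ± 0.26 (SE, edgeR adjusted p = 0.00045). Per length, Il4ra and Il15ra were the highest of the set in AA skin at 13.4 and 13.1 mean TPM, and Il7 the lowest at 0.885 mean TPM.

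Il2rb, the beta chain shared by the IL-2 and IL-15 receptors, ranged from 6.50 to 13.8 CPM (median 10.1) in healthy and from 14.3 to 32.6 CPM (median 22.6) in AA skin. Every AA library was above every healthy library, with AA library E the highest. The log2 fold change was 1.14 ± 0.25 (SE, edgeR adjusted p = 0.00089). Il2rg ranged from 4.74 to 9.93 CPM (median 5.96) in healthy and from 5.38 to 18.3 CPM (median 11.3) in AA skin, so its groups overlapped. Its log2 fold change of 0.85 ± 0.28 (SE, edgeR adjusted p = 0.018) rested on AA library E, without which it was 0.66 with an adjusted p of 0.063.

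The remaining chains and both cytokines stayed short of the threshold. Il7r, the IL-7 receptor alpha chain, had medians of 10.4 CPM in healthy and 14.5 CPM in AA skin with a log2 fold change of 0.60 ± 0.25 (SE, edgeR adjusted p = 0.061). Il15ra, which presents IL-15 on the surface of the cell that makes it, had a log2 fold change of 0.20 ± 0.096 (SE, edgeR adjusted p = 0.095). Il15 ranged from 9.95 to 12.4 CPM in healthy and from 7.39 to 10.4 CPM in AA skin, with a log2 fold change of -0.29 ± 0.12 (SE, edgeR adjusted p = 0.064). Il7 had a log2 fold change of -0.25 ± 0.23 (SE, edgeR adjusted p = 0.41), with a 95% interval from -0.71 to 0.21.

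Some T cell and NK cell markers rose with the chains in whole skin, where a change in the cells of a type and in the RNA per cell cannot be told apart. The 13 genes of the T cell list summed to between 43.9 and 68.2 CPM in healthy skin and between 51.4 and 178 CPM in AA skin, and 6 of 13 rose. Cd8b1, a chain of the CD8 coreceptor, was at 0 in all healthy libraries and averaged 8.37 CPM in AA. Of the 4 tested NK cell markers 3 rose, and of the 4 tested markers of epidermal gamma-delta T cells, which also carry Il2rb, 3 fell. Other immune lists were mixed. Of 8 monocyte and macrophage markers 3 rose and 0 fell, and of 6 dendritic and Langerhans cell markers 2 rose and 3 fell. Of the 3 tested markers of type 2 innate lymphoid cells 1 rose and 2 fell, and of the 2 tested B and plasma cell markers 1 rose. The hair follicle list rose in all 6 of its genes, and the 4 endothelial and 4 adipocyte markers all fell. The part of these shifts in the result was not tested beyond the ratios to T cell RNA given further on.

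**Figure D2:**
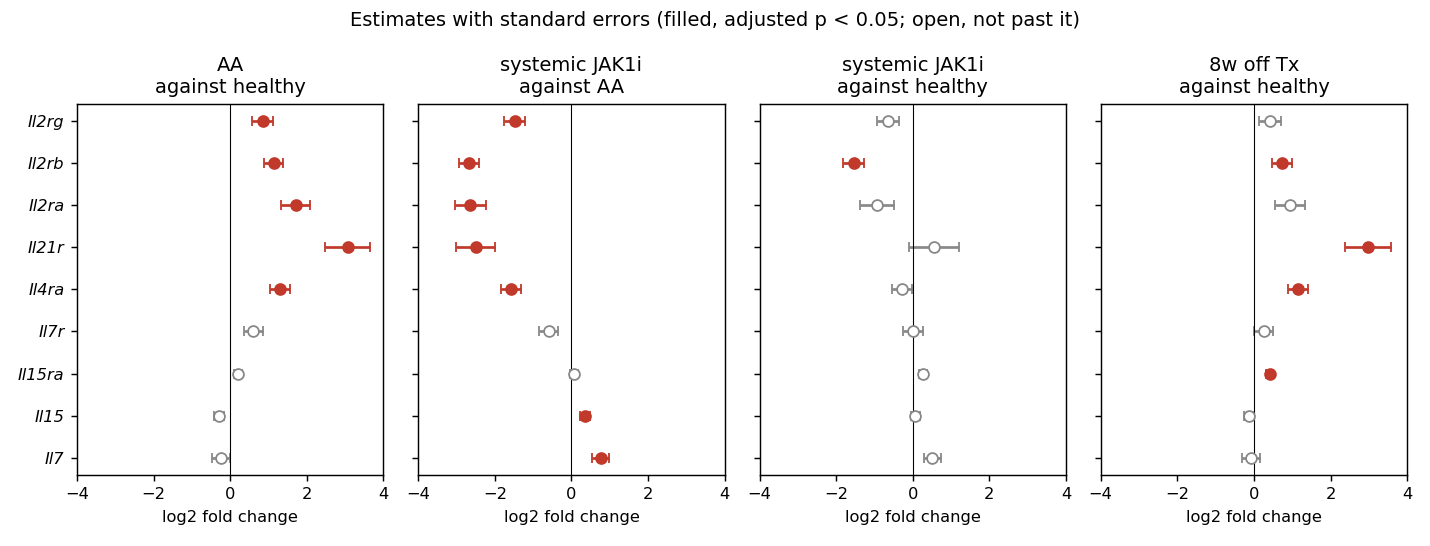
Log2 fold change (points) with its SE (bars) for each gene in 4 comparisons, from the edgeR fit over all 24 libraries; filled points passed an adjusted p of 0.05. The 5 genes that are filled to the right in AA against healthy are all filled to the left in systemic JAK1i against AA, and Il2rb alone is filled in systemic JAK1i against healthy.

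The next question was how the genes stood after 4 weeks of systemic JAK1 inhibition. Against AA the same 5 chains, Il2rb, Il2ra, Il21r, Il4ra and Il2rg, fell, and both cytokine genes, Il7 and Il15, rose, making 7 of 9. By the same test 24.8% of all genes fell and 22.9% rose in this comparison, 47.7% in all. On CPM the groups did not overlap for Il2rb, Il2ra and Il4ra on the low side, where 13.8% of all genes lay, and for Il7 on the high side, where 13.2% lay (26.9% on either side). The AA libraries are the same ones as in the comparison with healthy skin, so the opposite signs of the 2 comparisons share those samples.

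Il2rb fell most. It ranged from 2.00 to 4.50 CPM (median 3.94) in the systemic JAK1i group, under the lowest AA library at 14.3 CPM and also under the lowest healthy library at 6.50 CPM. The log2 fold change was -2.67 ± 0.27 against AA (SE, edgeR adjusted p = 2.5e-07), a 6.38-fold lower level. Il2ra ranged from 1.16 to 1.91 CPM (median 1.41), with a log2 fold change of -2.64 ± 0.41 (SE, edgeR adjusted p = 1.8e-05). These Il2ra values came from 7 to 15 counts per library. In the deposited TPM before centring, Il2ra averaged 1.21 TPM under systemic JAK1i and 1.73 TPM in AA, with overlapping libraries. Il2rb averaged 0.803 and 3.17 TPM, without overlap.

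Il21r ranged from 0.273 to 3.29 CPM (median 0.788) and overlapped AA only through library A. Its log2 fold change was -2.50 ± 0.51 (SE, edgeR adjusted p = 0.00031). Il4ra ranged from 57.0 to 87.9 CPM (median 60.1), overlapping the healthy range from its lower end, with a log2 fold change of -1.58 ± 0.26 against AA (SE, edgeR adjusted p = 4.7e-05). Il2rg ranged from 2.28 to 6.14 CPM (median 3.78) and fell by 1.48 ± 0.28 on the log2 scale (SE, edgeR adjusted p = 0.00018). On TPM before centring, Il21r, Il4ra and Il2rg averaged 1.74, 7.21 and 3.65 TPM under systemic JAK1i. In AA they averaged 2.01, 13.4 and 5.66 TPM, and the libraries of the groups overlapped for each gene.

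The cytokine genes went the other way. Il7 ranged from 6.95 to 11.2 CPM (median 8.30) in the systemic JAK1i group and from 3.70 to 6.43 CPM (median 5.22) in AA, without overlap. Its log2 fold change was 0.76 ± 0.23 (SE, edgeR adjusted p = 0.0079). Il15 ranged from 9.12 to 13.98 CPM (median 12.1), with a log2 fold change of 0.36 ± 0.12 (SE, edgeR adjusted p = 0.019). The call for Il15 was lost without AA library E or without systemic JAK1i library B (adjusted p = 0.055 in each case). On centred TPM neither cytokine gene passed (limma adjusted p = 0.13 for Il7 and 0.51 for Il15).

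Markers of other cells and tissues differed in the same libraries. The T cell list fell in 9 of 13 genes, the NK cell list in 4 of 4 and the hair follicle list in 6 of 6, alongside the receptor chains. Of 8 monocyte and macrophage markers 3 fell and 0 rose, and of 6 dendritic and Langerhans cell markers 2 fell and 1 rose. The B and plasma cell list did not fall with the chains. Its sum averaged 6.78 CPM in healthy skin, 25.8 CPM in AA and 65.2 CPM under systemic JAK1i. Of its 2 tested genes 0 passed against AA and 2 were higher than in healthy skin. The mast cell list rose in 4 of 5 genes and the fibroblast list in 3 of 5. The endothelial list rose in 4 of 4 genes and the adipocyte list in 4 of 4, and the summed skeletal muscle list was 17840 to 22986 CPM under systemic JAK1i and 6767 to 18658 CPM in AA. With the muscle list as a covariate the edgeR adjusted p was 0.0017 for Il7 and 0.041 for Il15. The muscle sums themselves differed largely by group, so this fit cannot separate muscle from group. The part of the muscle list and of the other lists was not tested beyond the ratios to T cell RNA. Il7r had a log2 fold change of -0.59 ± 0.25 (SE, edgeR adjusted p = 0.053), and Il15ra one of 0.064 ± 0.095 (SE, edgeR adjusted p = 0.60).

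Against healthy skin the systemic JAK1i group differed in 1 of the 9 genes, where 1.05% of all genes passed, 0.511% higher and 0.535% lower. This was Il2rb, which was lower by 1.54 ± 0.27 on the log2 scale (SE, edgeR adjusted p = 0.0091), with no overlap of libraries on the low side, as for 1.14% of all genes (1.42% on the high side and 2.56% on either). The call was lost with skeletal muscle as a covariate (log2 fold change -1.23, adjusted p = 0.076), without healthy libraries A and E (-1.39, adjusted p = 0.078) and on uncentred log2(TPM + 0.1) (-1.20, limma adjusted p = 0.081), and was kept with each library left out in turn. The other 8 genes had estimates between -0.93 for Il2ra and 0.56 for Il21r, with adjusted p from 0.15 to 0.99. Intervals for several were wide, with Il2rg at a 95% interval from -1.20 to -0.070 and Il21r from -0.71 to 1.84. Of the 4 tested epidermal gamma-delta markers 3 were lower than in healthy skin here too, and their summed level was 4.97 to 7.91 CPM under systemic JAK1i, 3.18 to 11.3 CPM in AA and 10.7 to 21.3 CPM in healthy skin. The NK cell list summed to 8.41 to 13.8 CPM under systemic JAK1i and 10.01 to 20.8 CPM in healthy skin. The part of these 2 lists in the Il2rb result was not tested.

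To set the genes against T cell RNA, each was divided by the summed CPM of the T cell list in the same library. Groups were compared by exact permutation tests on log2 ratios with 0.5 CPM added, where 0.00216 is the smallest two-sided p that 6 against 6 allows. The 13 genes of the list did not all move together, so their sum is not a count of T cells. Against healthy skin 6 were higher and 2 lower in 8w off Tx, and 1 was higher and 0 lower under systemic JAK1i. Of 54 ratios 20 passed after Benjamini-Hochberg adjustment over the 54. They fell among Il2rb, Il21r, Il7r, Il15ra, Il15 and Il7. A ratio can pass through the T cell list alone, so a pass does not by itself show a change in the gene. Under systemic JAK1i against AA the Il15ra log2 ratio was higher by 1.24 (exact permutation adjusted p = 0.027), where Il15ra itself had a log2 fold change of 0.064. The Il7r ratio was higher by 0.60 (exact permutation adjusted p = 0.0468), where Il7r itself had one of -0.59. Il2rb stood at 14.8 to 21.9 CPM per 100 CPM of T cell RNA in healthy skin, 17.7 to 29.5 in AA and 5.24 to 11.8 under systemic JAK1i. The systemic JAK1i libraries thus lay below all healthy and all AA libraries on this scale too. The log2 ratio was lower by 1.33 than in AA and by 1.16 than in healthy skin (exact permutation adjusted p = 0.0195 for both), and both calls held with Cd3e alone as the denominator (-1.81 and -0.85, exact permutation adjusted p = 0.0117 and 0.0246). Between AA and healthy skin the log2 ratio differed by 0.17 (exact permutation adjusted p = 0.389), but by 0.96 with Cd3e alone (exact permutation adjusted p = 0.0117).

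**Figure D3:**
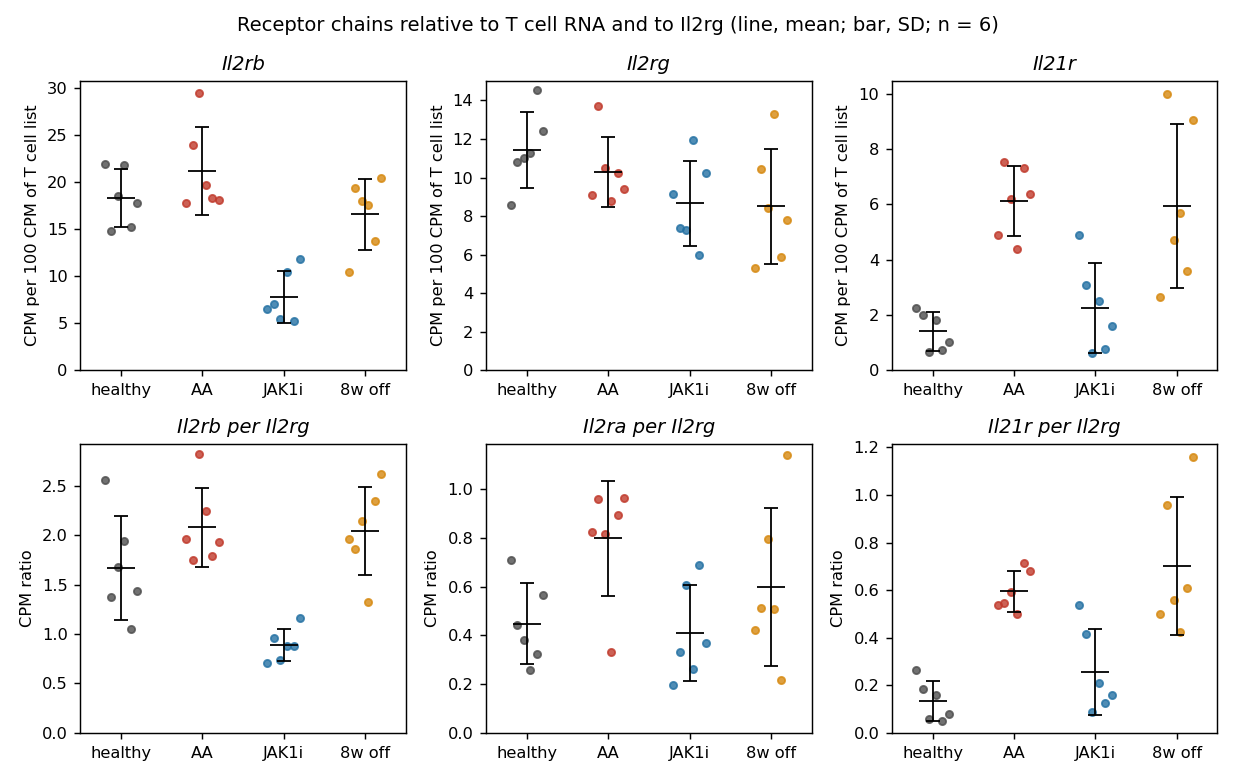
Upper row, CPM of Il2rb, Il2rg and Il21r per 100 CPM of the summed T cell list; lower row, CPM of Il2rb, Il2ra and Il21r divided by CPM of Il2rg, per library (points) with mean (line) and SD (bar), 6 libraries per group. Il2rb under systemic JAK1i lies at 5.24 to 11.8 per 100 CPM of T cell RNA, under all healthy and AA libraries, while Il2rg overlaps across all groups.

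Il2rg did not pass in any of its 6 ratio comparisons (adjusted p from 0.122 to 0.634), with 8.58 to 14.5 CPM per 100 CPM of T cell RNA in healthy skin and 5.99 to 11.9 under systemic JAK1i. Il21r stood at 0.649 to 2.26 in healthy skin and 4.38 to 7.51 in AA, and its log2 ratio was higher by 1.56 in AA (exact permutation adjusted p = 0.0195) and lower by 1.06 under systemic JAK1i than in AA (exact permutation adjusted p = 0.027). With deposited TPM in place of CPM these Il21r differences were 0.12 and -0.018 and did not pass. For Il4ra and Il2ra 0 of 12 ratios passed. Il7 and Il15 per T cell RNA were lower in AA than in healthy skin (exact permutation adjusted p = 0.0365 and 0.027), with a higher summed T cell list in AA.

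Chains were also set against the common chain, a comparison added after the values had been seen. Il2rb divided by Il2rg was 1.05 to 2.55 in healthy skin, 1.75 to 2.82 in AA, 0.707 to 1.16 under systemic JAK1i and 1.32 to 2.62 in 8w off Tx. The log2 ratio under systemic JAK1i was lower by 1.17 than in AA and by 0.81 than in healthy skin (exact permutation adjusted p = 0.0195 and 0.0312 over 36 ratios). Il21r per Il2rg was 0.050 to 0.263 in healthy skin and 0.5 to 0.714 in AA, a log2 difference of 1.74 (exact permutation adjusted p = 0.0195). Il7r per Il2rg was higher under systemic JAK1i than in AA by 0.77 (exact permutation adjusted p = 0.0334).

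The last question was what was seen 8 weeks after dosing ended. Against healthy skin 4 of the 9 genes were higher, Il21r, Il4ra, Il2rb and Il15ra, and 0 lower, where 16.9% of all genes were higher, 15.7% lower and 32.7% passed in either direction. Il21r ranged from 3.10 to 12.5 CPM (median 3.91), above every healthy library, as for 4.31% of all genes (4.67% on the low side and 8.97% on either), with a log2 fold change of 2.97 ± 0.59 (SE, edgeR adjusted p = 0.00031). Il4ra ranged from 93.1 to 312 CPM (median 145), with a log2 fold change of 1.15 ± 0.26 (SE, edgeR adjusted p = 0.0018). Libraries B and F were the highest in both genes, and the other 4 stood between 3.10 and 4.22 CPM for Il21r.

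Il2rb in 8w off Tx ranged from 11.2 to 25.3 CPM (median 14.7), with a log2 fold change of 0.73 ± 0.25 against healthy skin (SE, edgeR adjusted p = 0.028). Without libraries B and F, the highest of the group for Il2rb, this was 0.34 with an adjusted p of 0.34. The call was also lost without healthy library B, C or F or without 8w off Tx library B or F alone. Il15ra ranged from 41.0 to 56.5 CPM (median 51.1), with a log2 fold change of 0.41 ± 0.095 (SE, edgeR adjusted p = 0.0021), which on centred TPM was 0.098 (limma adjusted p = 0.55). Il2ra had a log2 fold change of 0.93 ± 0.40 (SE, edgeR adjusted p = 0.071) and Il2rg one of 0.42 ± 0.28 (SE, edgeR adjusted p = 0.26). The Il2ra libraries spread from 1.11 CPM in library E to 11.001 CPM in library F.

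Against the systemic JAK1i biopsies the same chains that had fallen, Il2rb, Il21r, Il2ra, Il4ra and Il2rg, were higher and Il7 was lower, 6 of 9, where 35.9% of all genes passed, 19.4% higher and 16.6% lower. Il2rb had a log2 fold change of 2.27 ± 0.27 (SE, edgeR adjusted p = 3e-06) and Il4ra one of 1.44 ± 0.26 (SE, edgeR adjusted p = 0.00021), both without overlap of libraries, as for 8.77% of all genes on the high side and 18% on either. The fit treated the libraries of both groups as independent, although by the study's methods they came from the same mice. The SE and p-values of this comparison therefore do not use that pairing. Il21r, Il2ra and Il2rg had log2 fold changes of 2.41, 1.86 and 1.05. Il7 was lower by 0.59 ± 0.22 on the log2 scale (SE, edgeR adjusted p = 0.044), without overlap, as for 9.19% of all genes on the low side, but its call was lost under several alternatives, among them the fit without low-count filtering (adjusted p = 0.063). In the same comparison the T cell list was higher in 8 of 13 genes and lower in 1, the NK cell list higher in 4 of 4 and the hair follicle list in 6 of 6. The fibroblast list was lower in 5 of 5 genes, the endothelial in 4 of 4, the adipocyte in 4 of 4 and the mast cell list in 4 of 5, and the part of these lists in the values of the chains and of Il7 was not tested beyond the ratios to T cell RNA. Without libraries B and F of 8w off Tx, the highest of that group for Il2rg, its call was lost (log2 fold change 0.77, adjusted p = 0.074).

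Against AA 0 of the 9 genes passed in 8w off Tx with edgeR, and 0 with DESeq2, where 1.37% of all genes passed, 0.726% higher and 0.640% lower. The libraries overlapped for all 9, where 1.28% of all genes did not overlap, 0.683% high and 0.597% low. At an unadjusted p under 0.05 there were 2, Il2ra, with a log2 fold change of -0.77 ± 0.36 (SE), and Il15ra, with 0.21 ± 0.095 (SE). The 95% intervals ran from -0.88 to 0.071 for Il2rb and from -0.96 to 0.77 for Il21r, so differences of those sizes are not excluded. Without libraries B and F the fall of Il2ra passed (log2 fold change -1.38, adjusted p = 0.033). The T cell list summed to 63.6 to 159 CPM in 8w off Tx, with libraries A, B and F the highest at 159, 125 and 124 CPM.

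Ordered by mean CPM, Il2rb was lowest under systemic JAK1i, then in healthy skin, 8w off Tx and AA, and of the 3 steps the lower 2 passed the test (adjusted p = 0.0091 and 0.028) while 8w off Tx and AA did not differ beyond their spread (adjusted p = 0.38). Both calls were lost in some of the settings given above, and the order was read from the same values that were tested. Il4ra, Il2rg and Il2ra had the same order, with Il4ra differing only between healthy skin and 8w off Tx (adjusted p = 0.0018) and Il2rg and Il2ra at none of the 3 neighbouring steps. Il21r rose in 1 step, between systemic JAK1i and 8w off Tx (adjusted p = 0.00074). Il15 and Il7 had AA lowest and systemic JAK1i highest, with no neighbouring groups past the threshold.

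The other genes of the pathway were taken from a list of 34, of which 28 were expressed enough to test. In AA 7 rose and 2 fell, which is 9 of 28 where 40.2% of all genes passed, and under systemic JAK1i against AA 13 fell and 2 rose, which is 15 of 28 where 47.7% of all genes passed. The median log2 fold change of the 28 was 0.12 and -0.25 in those comparisons. Of the ligands Il2, Il4, Il13, Il21 and Tslp did not pass the filter on low counts, and Il21 was at 0 in all healthy libraries and averaged 0.038 CPM in AA. Whether IL-21 or IL-2 message differed was therefore not detectable at this depth.

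**Figure D4:**
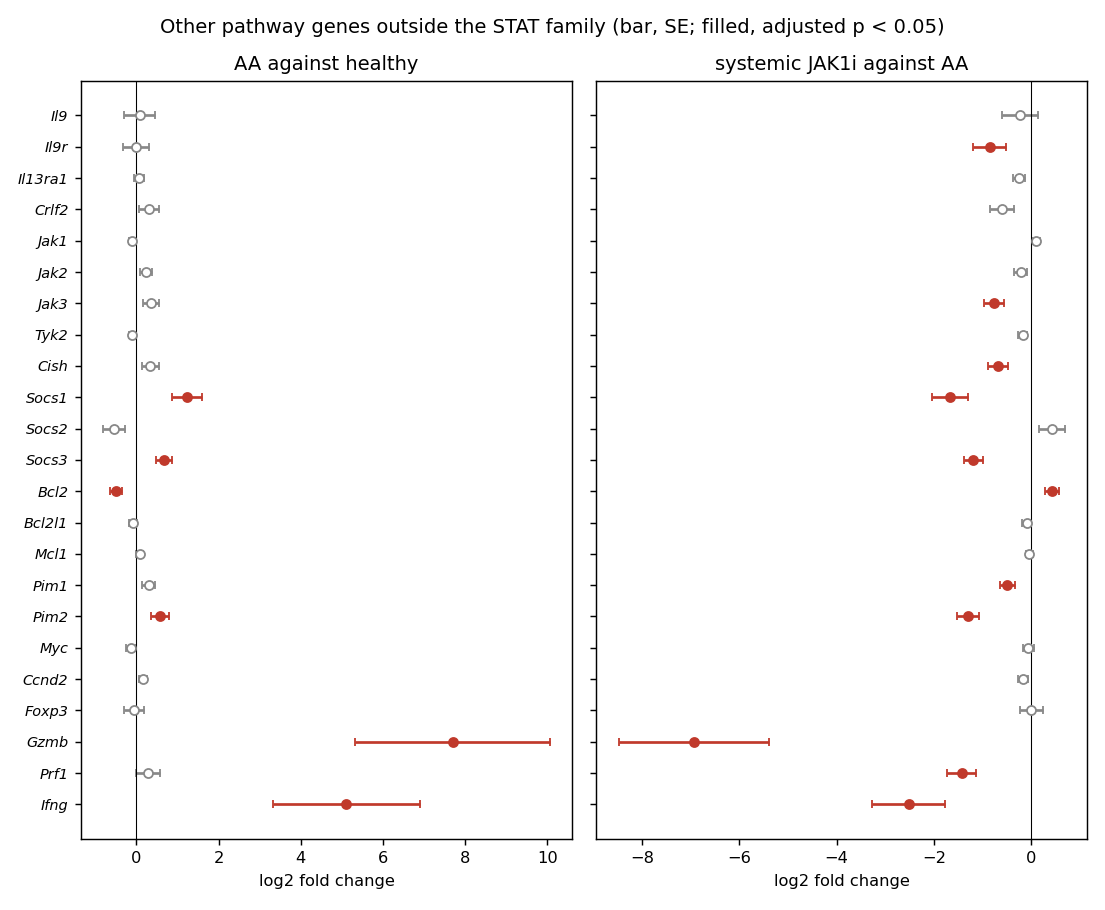
Log2 fold change (points) with SE (bars) of the tested pathway genes outside the STAT family in AA against healthy (left) and systemic JAK1i against AA (right), from the edgeR fit; filled points passed an adjusted p of 0.05. Socs1 is filled at 1.23 on the left and at -1.67 on the right, while Jak1, the target of the inhibitor, is open in both.

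Among the kinases, Jak1 averaged 283 ± 17.2 CPM in healthy skin, 262 ± 28.2 CPM in AA and 280 ± 14.6 CPM under systemic JAK1i (SD, n = 6), with adjusted p of 0.26 and 0.33. Jak3, the partner of the common chain, averaged 20.1 CPM in healthy skin, 25.8 CPM in AA and 15.1 CPM under systemic JAK1i, and fell against AA by 0.77 ± 0.20 on the log2 scale (SE, edgeR adjusted p = 0.0028). Stat3 rose in AA by 0.53 on the log2 scale (edgeR adjusted p = 0.00012) and fell under systemic JAK1i by 0.82 (adjusted p = 9.3e-07), and Stat5b, which carries IL-2, IL-7 and IL-15 signals, went the other way, with log2 fold changes of -0.31 (adjusted p = 0.022) and 0.46 (adjusted p = 0.001).

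Feedback genes and targets of STAT signalling gave a mixed picture. Socs1 and Socs3, inhibitors induced by cytokine signalling, rose in AA by 1.23 and 0.68 on the log2 scale (edgeR adjusted p = 0.011 and 0.0096) and fell under systemic JAK1i by 1.67 and 1.19 (adjusted p = 0.00083 and 5.6e-05). Cish, a feedback inhibitor induced by STAT5, had a log2 fold change of 0.33 in AA (adjusted p = 0.20) and fell under systemic JAK1i by 0.69 (adjusted p = 0.008). Pim2, a survival kinase, rose by 0.58 and fell by 1.30, and Bcl2, a survival factor sustained by IL-7, had log2 fold changes of -0.49 and 0.42 in the 2 comparisons (adjusted p = 0.0086 and 0.019). Gzmb, the granzyme of cytotoxic cells, averaged 0.058 CPM in healthy skin, 16.9 ± 13.4 CPM in AA and 0.14 ± 0.21 CPM under systemic JAK1i (SD), and passed in both comparisons (adjusted p = 1e-05 and 5.5e-06). Ifng averaged 0.070, 2.76 and 0.49 CPM and also passed in both (adjusted p = 0.00038 and 0.0049). Prf1, the pore-forming protein, had a log2 fold change of 0.29 in AA (adjusted p = 0.46) and fell under systemic JAK1i by 1.43 (adjusted p = 0.00053).

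Genes most alike to each member were found by Pearson correlation of log2 CPM over the 24 libraries, which share the 4 group differences, among 15187 genes. Those closest to Il2rb included Ptprcap and Ctsw (r = 0.91 for each), both lymphocyte genes. Il21r was most like Nmi, Gzmb and Ifi47 (r = 0.94 for each), of which Nmi and Ifi47 are interferon-induced. Those closest to Il2rg included Myo1g and Rinl (r = 0.89 for each). Il2ra was most like Timp1 (r = 0.93), Ifitm3 and Lipg, and those closest to Il4ra included Efhd2 (r = 0.96) and Tpm3 (r = 0.95). Il7r was most like Mmp12 (r = 0.82), Jaml and Traf3ip3. For Il15, Il15ra and Il7 the closest genes, Zfp503, Faf1 and Ispd, had r of 0.83, 0.76 and 0.85. Within groups, the correlation of log2 CPM of Il2rb with the summed T cell list was 0.77 in healthy skin, 0.90 in AA, 0.45 under systemic JAK1i and 0.75 in 8w off Tx. That of Il2rg was 0.73, 0.93, 0.73 and 0.51, each over 6 libraries and as a description.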

How the data were processed

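Total RNA of whole skin was sequenced as paired 76-base reads after ribosomal RNA removal, and the authors deposited raw counts per gene, made with HISAT2 2.0.1 on GRCm38 (mm10) and featureCounts 1.4.4 per the labels and methods. The paper reports low RNA integrity for the mouse samples, gives this as the reason for the kit used, and states that the RNA was not fragmented. The part of RNA quality in the low counts and in the differences between counts and TPM was not tested. The annotation release and strand setting were not stated in the sources read. The authors also deposited a TPM table, whose tool is not named there. A further 6 columns of each table match no sample of the series and were not used.

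Groups came from the labels. Counts were filtered with filterByExpr (minimum count 10, 16248 of 39017 genes kept, all 9 members among them), scaled by TMM and fitted in edgeR 4.0.16 (R 4.3.3) with all 24 libraries. The 6 comparisons were tested by quasi-likelihood with Benjamini-Hochberg adjustment, called at 0.05. Standard errors are Wald errors of that fit. Ratios were compared by exact two-sided permutation tests (scipy). Alternatives used DESeq2 1.42.0, limma 3.58.1 on log2(TPM + 0.1) or log2(TPM + 1), other scalings, filters and library sets. The scripts were tested on simulated data. Named pathway genes were those past 0.05 in AA against healthy or systemic JAK1i against AA, up to 12 by smallest p, plus Jak1, Jak3, Cish and Socs1, and 3 genes that the rules for pathway and most alike genes name are not reported here. The members and gene lists were chosen with earlier results of these data known. Nothing says that libraries of a group came from mice housed or processed apart, so p-values measure the spread between these samples. Replicate letters were checked for pairing: same-letter deviations correlated at a median of -0.083 to 0.013 in the 6 comparisons, and no library pair of a group agreed within sampling noise.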

Additional observations from a re-analysis of the deposited data

Results flagged for a closer look

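Of 36 gene and group sets of 6 libraries, 2 held a library whose distance from its nearest neighbour was a large share of the group's range by Dixon's criterion, where chance alone marks about 1 in 20 sets. Il2rg stood at 9.93 CPM in healthy library E, with the other 5 libraries between 4.74 and 6.35 CPM. Il7r stood at 28.7 CPM in AA library E, with the other 5 between 12.0 and 16.6 CPM. AA library E also had the highest summed T cell list of its group at 178 CPM, and healthy library E the highest of its group at 68.2 CPM.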

How the results depend on the processing

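Members called in the 6 comparisons (AA, then systemic JAK1i against AA and against healthy, then 8w off Tx against healthy, AA and systemic JAK1i) numbered 5, 7, 1, 4, 0 and 6, and 5, 8, 1, 4, 0 and 6 with DESeq2. With 1 library left out at a time they numbered 4 to 6, 6 to 8, 1, 3 to 5, 0 and 5 to 6. With the replicate block the counts were 5, 7, 1, 4, 0 and 5, the lost call being Il7 in 8w off Tx against systemic JAK1i (log2 fold change -0.54, adjusted p = 0.059), and at most 2 of 6 libraries correlated best with their own letter, and whether the letters name mice is not given by the labels. For systemic JAK1i against healthy, 0 members passed with skeletal muscle as a covariate and 0 without healthy libraries A and E, 2 with limma-voom, and 2 pathway genes passed with only those groups fitted, 2 with DESeq2 and 5 with limma-voom, and 0 to 2 with 1 library left out. Without 8w off Tx libraries A and E, 11 pathway genes passed against healthy and 1 against AA, and against AA 122 of 16680 genes passed. Without B and F, a setting chosen after seeing the data, 1 member passed against AA, where 1274 of 16632 genes passed. The same setting gave 8 pathway genes against systemic JAK1i. Estimates near 0 that changed sign were Il7r in systemic JAK1i against healthy (-0.012 with upper-quartile scaling, -0.0012 with no filter, -0.0078 without 8w off Tx libraries A and E, -0.057 with limma-voom, and -0.091 to 0.12 with 1 library left out), Il21r in the same comparison (-0.024 to 0.86 with 1 left out), Il7 in 8w off Tx against healthy (0.21 with the muscle covariate, 0.063 without healthy A and E, -0.22 to 0.075 with 1 left out), and Il21r and Il4ra in 8w off Tx against AA (Il21r 0.080 with the muscle covariate, 0.15 and 0.083 for Il21r and Il4ra without A and E, -0.41 to 0.19 and -0.36 to 0.0084 with 1 left out). Deposited TPM without centring carried the shift of all genes. Members called were 0 in AA against healthy, 4 in systemic JAK1i against AA with no filter, 0 in systemic JAK1i against healthy, and 2, or 1 with no filter, in 8w off Tx against healthy. Pathway genes called with log2(TPM + 0.1), log2(TPM + 1) and no filter were 3, 3 and 4 in AA against healthy, 16, 15 and 17 in 8w off Tx against healthy (13 when centred), 2, 1 and 1 against AA, and 21, 21 and 22 against systemic JAK1i. In 8w off Tx against AA, 1074 and 978 of 16248 genes passed in these settings, and 384 of 31833 with no filter. The other counts under alternatives stand without the share of all genes in their own setting, so they are not results about the listed genes. In AA against healthy Il15ra (-0.39 and -0.36) turned sign on log2(TPM + 0.1), filtered or not, and log2(TPM + 1). In systemic JAK1i against AA so did Il7r (0.11 and 0.060). In systemic JAK1i against healthy so did Il2ra (0.13 and 0.077) and Il4ra (0.036 and 0.033). In 8w off Tx against healthy so did Il2rb (-0.25 and -0.15), Il2rg (-0.36 and -0.26), Il2ra (-0.34 and -0.15), Il15ra (-0.58 and -0.54), Il7r (-0.57 and -0.31) and Il21r (-0.22 and -0.095). In 8w off Tx against AA so did Il15 (-0.45 and -0.28), Il15ra (-0.19 and -0.18) and Il7 (-0.16 and -0.094). In 8w off Tx against systemic JAK1i so did Il2rg (-0.16 and -0.10), Il2ra (-0.47 and -0.22), Il15ra (-1.04 and -0.98), Il7r (-0.90 and -0.54) and Il21r (-0.49 and -0.27). Centred TPM turned the sign of Il15ra in AA against healthy (-0.15), Il15 in systemic JAK1i against healthy (-0.063), Il7r in systemic JAK1i against healthy (-0.080), Il21r in systemic JAK1i against healthy (-0.13), Il7 in 8w off Tx against healthy (0.26), Il21r in 8w off Tx against AA (0.036), Il15 in 8w off Tx against systemic JAK1i (0.052), Il15ra in 8w off Tx against systemic JAK1i (-0.027) and Il7 in 8w off Tx against systemic JAK1i (0.085). Ratios to T cell RNA that passed numbered 20 of 54, 13 with 2 CPM added, 6 with TPM, and 12 to 22 with 1 library left out. The Il2rb ratio in 8w off Tx against healthy turned to 0.40 with Cd3e alone and 0.25 with TPM, and that of Il7r to 0.030 with TPM. The cause of these changes was not tested. Low counts limited Il21r and Il2ra, with 2 to 22 and 7 to 15 counts per library under systemic JAK1i.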
